A study of Mus musculus with 72 samples.

Results

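MicroRNAs (miRNAs) of mouse liver were compared between mice that had received 12 Gy and sham-irradiated mice (0 Gy). The comparison rested on 6 of the 72 arrays of the series, namely every liver miRNA array labelled 12 Gy (mice 6, 16 and 26) and every one labelled 0 Gy (mice 1, 11 and 21). All animals were female C57BL/6 J mice aged 6 to 8 weeks, with no further genetic change or agent. The irradiated mice received a single whole-body X-ray dose at 1.05 Gy per min, the controls were placed in the same kind of container without exposure, and tissue was taken at 48 h. RNA was extracted from powdered frozen tissue, so each array measured RNA of the whole tissue. Each array stood for 1 mouse and was read in 1 colour. The array design held probes for 1881 mouse miRNAs, and 223 of them had a probe well above background on at least 1 of the 18 liver miRNA arrays of all doses and were tested. The other 1658 were not tested. Levels are given as log2 normalized intensity, and differences as log2 fold change (log2FC) of 12 Gy over 0 Gy.

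A miRNA is cut from a hairpin precursor to a strand of about the length of the sequences printed here, is loaded into an Argonaute protein, and lowers the output of mRNAs that pair with its seed, the stretch from base 2 to base 8. One locus can yield both a 5p and a 3p strand, and loci often lie in clusters or inside protein-coding genes. After DNA damage, the transcription factor p53 activates the gene of miR-34a, whose targets include cell cycle and survival genes. miR-142a and miR-223 are known as miRNAs of blood cells, miR-122 as that of hepatocytes, and the miR-17-92 cluster as one of dividing cells.

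The labelled tissue was borne out by its defining miRNA. The scanner's total signal of miR-122-5p lay between 28700 and 47500 on the 18 liver arrays and between 0.1, the floor, and 648 on the 18 lung arrays. The epithelial miR-200c-3p ran the other way, with 0.1 to 3.12 in liver and 1810 to 2840 in lung. No array stood against its tissue label.

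The arrays were not balanced over glass slides. All 0 Gy arrays lay on slide 1, the 12 Gy array of mouse 6 on slide 3, and those of mice 16 and 26 on slide 4, and each slide was scanned in 1 session. No slide held both groups. The arrays of mice 16 and 26 also stood apart in quality, with 7958 and 9513 spots well above background against 4342 to 5868 on the other 4, although only 242 and 245 of their probes counted as well above background against 259 to 312. Values without this pair of arrays, which leave 1 array at 12 Gy that is assumed to vary like the other groups, are given beside the results.

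The miRNAs on which the results turned are shown with their RefSeq mature sequences (GRCm38.p6), written 5′ to 3′ with the seed in capitals. Of the 223 miRNAs tested, 194 had a sequence in the table used. RefSeq gene spans tell which gene a miRNA lies in, and exon or intron was not looked up. The first is the p53-linked miRNA that rose most. It lies at chr4:150068473-150068494 on the plus strand, in no other annotated gene.
miR-34a-5p: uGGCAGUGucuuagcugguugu
The next are leukocyte miRNAs that fell. Both strands of miR-142a come from 1 hairpin on chromosome 11, with the 3p strand at chr11:87756903-87756925 (plus strand). miR-223-3p lies at chrX:96242884-96242905 (plus strand) within F630028O10Rik, and miR-342-3p at chr12:108658680-108658702 (plus strand) within Evl, a gene for an actin regulator.
miR-142a-3p: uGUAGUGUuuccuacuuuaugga
miR-142a-5p: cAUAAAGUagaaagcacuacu
miR-223-3p: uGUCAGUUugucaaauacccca
miR-342-3p: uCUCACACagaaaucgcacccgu
A set of 4 tested miRNAs shared the seed AAAGUGC of the miR-17 family, and they are shown because 3 of them fell. miR-20a-5p lies in the miR-17-92 cluster (chr14:115044183-115044205, plus strand), miR-20b-5p on chromosome X, and miR-106b-5p and miR-93-5p within Mcm7, a replication licensing gene on chromosome 5.
miR-20a-5p: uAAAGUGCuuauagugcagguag
miR-20b-5p: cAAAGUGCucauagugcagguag
miR-106b-5p: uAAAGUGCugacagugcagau
miR-93-5p: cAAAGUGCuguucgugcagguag
Of the 9 let-7 family members tested, which share the seed GAGGUAG, the one that fell is set against let-7a-5p.
let-7i-5p: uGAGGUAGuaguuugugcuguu
let-7a-5p: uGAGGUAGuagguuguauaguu
The remaining miRNAs that rose are shown for their base composition. miR-5126 lies within Dner, miR-3102-5p within Arhgef17, miR-211-3p within Trpm1 and miR-8101 within Hdac5, while miR-8110 lies in no other annotated gene. miR-3960 rose as well and had no entry.
miR-5126: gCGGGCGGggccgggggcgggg
miR-3102-5p: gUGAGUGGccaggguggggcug
miR-8110: aAGCGUGGauugggggggggg
miR-211-3p: gCAAGGACagcaaaggggggc
miR-8101: gGCGAGCGgagccggaggagcc

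At 12 Gy, miR-34a-5p was upregulated, and miRNAs of leukocytes, namely both strands of miR-142a, miR-223-3p and miR-342-3p, were downregulated. The 5 other upregulated miRNAs with a known sequence were rich in G and C. Of 10 tested members of miR-17-92 and its paralog clusters, 5 were downregulated, against 8.97% of all miRNAs tested. The median log2FC of that list was -0.29 against -0.20 over all. None of these 5 passed when each array was centred on its median. Across the 223 miRNAs, 27 changed at an adjusted p below 0.05 (12.1%), of which 7 were higher (3.14%) and 20 lower (8.97%). Only 2 of them, miR-34a-5p and miR-5126, also passed an absolute log2FC of 1, the threshold of the study's methods (0.897%). The values of the groups did not overlap for 48 miRNAs (21.5%), among them 24 of the 27 that changed. Tests were by limma over the 18 liver arrays with Benjamini-Hochberg adjustment, and with n = 3 a group the 95% confidence interval of a log2FC had a median half-width of 0.299.

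Most miRNAs had slightly lower values at 12 Gy. The median log2FC over all 223 was -0.20, and 183 (82.1%) had a log2FC below 0. Relative to that median, miR-34a-5p was higher by 1.74 and miR-142a-3p had a value of -0.67. When each array was centred on its median, 14 miRNAs were higher and 7 lower, and with scanner-processed signals scaled to the 75th percentile of detected probes 15 were higher and 12 lower. Without adjustment 34.5% passed a p below 0.05, with 30.0% lower and 4.48% higher. The excess of lower calls thus moved with the scaling.

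Leaving out the arrays of mice 16 and 26 left 2 of 216 miRNAs changed (0.926%), with 19 at an unadjusted p below 0.05. These were miR-34a-5p (log2FC 1.79, adjusted p = 0.0013) and miR-142a-3p (log2FC -0.87, adjusted p = 0.0025). The other 25 kept their direction with adjusted p of 0.12 to 1. With slide as a term of the model, 1 miRNA passed, miR-34a-5p (log2FC 2.20, adjusted p = 0.00059). With slide as a random block, 3 were higher and 6 lower. Leaving out mouse 6 instead gave 8 higher and 91 lower miRNAs. Without mouse 1, 16, 26 or 21, the number lower was 6, 8, 5 or 5, and without mouse 21 the number higher was 4. Fitted to the 6 arrays alone, 6 miRNAs were higher and 4 lower.

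**Figure D1:**
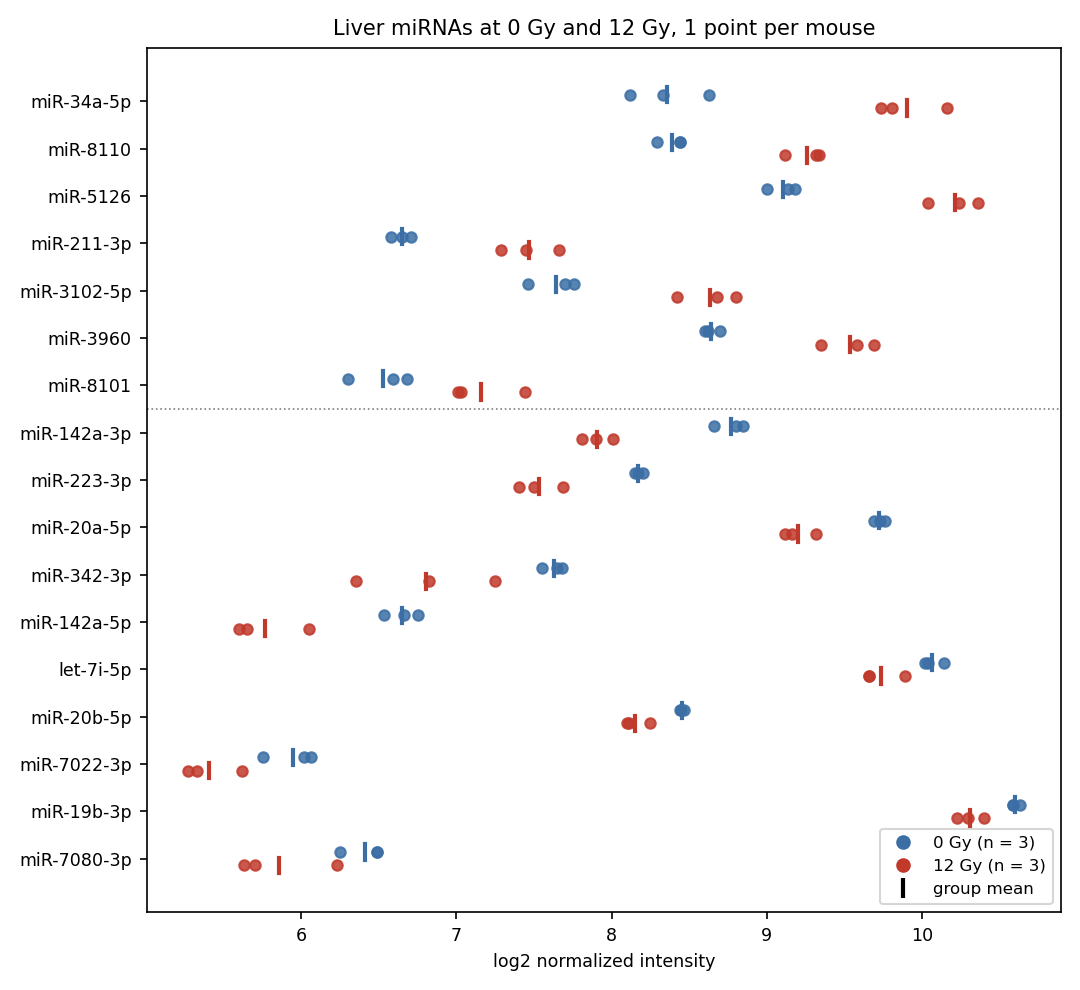
Log2 normalized intensity of the 7 miRNAs that were higher and the first 10 of the 20 that were lower at 12 Gy in order of p, with 1 point per mouse (blue 0 Gy, red 12 Gy, n = 3 each) and a bar at each group mean. The points of the 2 groups do not overlap for any miRNA plotted, and the gap is widest for miR-34a-5p.

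miR-34a-5p had levels of 8.12, 8.33 and 8.63 in mice 1, 11 and 21 at 0 Gy. In mice 6, 16 and 26 at 12 Gy it had levels of 10.16, 9.81 and 9.74. Every 12 Gy value exceeded every 0 Gy value by a wide margin, with mouse 6 the highest. The log2FC was 1.54 ± 0.18 (SE), a 2.91-fold rise (limma, adjusted p = 2.8e-05), and it was well above background on all 18 liver arrays. When processed signals were scaled to the 75th percentile of all probes, which lay near 0 on some arrays (0.35 to 39.3 intensity units), the median log2FC of all miRNAs was -1.66, that of miR-34a-5p was 0.07 (adjusted p = 0.96), and no miRNA passed by limma (0, with 2 at an unadjusted p below 0.05).

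Of the 17 p53-linked miRNAs on the list, 10 were tested. miR-34a-5p was the only one to pass in either direction (1 of 10 higher against 3.14% of all miRNAs tested). At an unadjusted p below 0.05 by limma, 3 were higher (against 4.48%) and 1 was lower, miR-107-3p (against 30.0%). The median log2FC of the 10 was -0.04 against -0.20 over all, and 6 of the 10 had groups without overlap, against 21.5%. These 6 went both ways, with miR-34a-5p, miR-29b-3p and miR-29c-3p higher and miR-107-3p, miR-16-5p and miR-194-5p lower. When arrays were centred on their median, miR-29b-3p (log2FC 0.59, adjusted p = 0.0058) and miR-29c-3p (0.41, adjusted p = 0.012) passed as well. miR-29b-3p, a repressor of collagen mRNAs, had levels of 10.39, 10.03 and 10.10 at 0 Gy and of 10.47, 10.59 and 10.54 at 12 Gy. These values did not overlap, but the log2FC of 0.36 had an adjusted p of 0.092. miR-192-5p, which p53 can induce and which is abundant in hepatocytes, had a log2FC of -0.05 (95% interval -0.20 to 0.11). The close relatives miR-34b and miR-34c, in both strands, and the passenger strand miR-34a-3p were well above background on 0 of the 18 liver arrays, as were miR-215-5p and miR-145a-5p.

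Of 8 leukocyte miRNAs on the list 6 were tested, 4 fell (against 8.97% of all tested) and none rose. Both strands of the miR-142a hairpin were among the 4. The list was chosen with earlier results of these data known, and these 4 are the lower miRNAs that the study names. The count is thus not independent evidence. The median log2FC of the 6 was -0.73 against -0.20 over all, the same with the 2 members known only as a bound set to it. In such whole-organ samples, fewer cells of a type and less RNA per cell cannot be told apart. The fall was clearest for miR-142a-3p, the strand that marks most blood cell lineages. Its levels were 8.85, 8.66 and 8.80 at 0 Gy and 7.90, 8.01 and 7.81 at 12 Gy. The spread within each group was small beside the distance between them. The log2FC was -0.86 ± 0.10 (SE), a 1.82-fold fall (adjusted p = 2.8e-05).

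The other strand of the same hairpin, miR-142a-5p, was dimmer. It had levels of 6.75, 6.53 and 6.66 at 0 Gy and of 6.05, 5.65 and 5.60 at 12 Gy. It was well above background on 3 of 3 arrays at 0 Gy and on 0 of 3 at 12 Gy, so only a bound could be given there, at least 1.84-fold lower (adjusted p = 0.0054). Without mice 16 and 26 its log2FC was -0.62 (adjusted p = 0.49). In the authors' own value table its direction was the opposite, with a log2FC of 0.51 and an adjusted p of 0.39.

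miR-223-3p, which marks neutrophils and other myeloid cells, had levels of 8.20, 8.17 and 8.15 at 0 Gy and of 7.69, 7.40 and 7.50 at 12 Gy. The controls were almost equal and all irradiated mice lay below them. Its log2FC was -0.64 ± 0.10 (SE), a 1.56-fold fall (adjusted p = 0.00047), and without mice 16 and 26 it was -0.48 (adjusted p = 0.12). miR-342-3p, a miRNA of lymphoid and myeloid cells, had levels of 7.68, 7.55 and 7.65 at 0 Gy and of 7.25, 6.82 and 6.35 at 12 Gy. Here the irradiated mice were spread over a range several times that of the controls, with mouse 26 the lowest, and the log2FC was -0.82 ± 0.16 (SE, adjusted p = 0.0035). Without mice 16 and 26 it was -0.39 (adjusted p = 0.23), and with slide as a term -0.35 (adjusted p = 0.53).

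Of the remaining leukocyte miRNAs, miR-146a-5p, a brake on inflammatory signalling, had a log2FC of -0.34 (adjusted p = 0.098). miR-181a-5p, known from lymphocyte development, had mean levels of 6.06 at 0 Gy, where it was well above background on 2 arrays, and 5.58 at 12 Gy, where it was so on 0, a difference of at least 1.26-fold (adjusted p = 0.063). Neither passed. The lymphocyte miRNA miR-150-5p and the activation-linked miR-155-5p were well above background on 0 of the 18 liver arrays.

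Members of the miR-17-92 cluster and its paralog clusters were also among the miRNAs that fell. Of 12 on the array 10 were tested, 5 were lower (against 8.97% of all tested) and 0 higher by limma. At an unadjusted p below 0.05, 7 were lower (against 30.0% of all tested) and 0 higher (against 4.48%). Their median log2FC was -0.29 against -0.20 over all, and -0.28 with 1 member at its bound. miR-20a-5p, whose seed is AAAGUGC, had levels of 9.73, 9.76 and 9.69 at 0 Gy and of 9.32, 9.16 and 9.12 at 12 Gy. The groups lay well apart and each was tight, and the log2FC was -0.53 ± 0.09 (SE, adjusted p = 0.0017). miR-20b-5p had a log2FC of -0.30 (adjusted p = 0.022) and miR-106b-5p of -0.29 (adjusted p = 0.025). miR-93-5p, with the same seed, had a log2FC of -0.27 and did not pass (adjusted p = 0.098). With a different seed, miR-19b-3p fell by 0.29 on the log2 scale (adjusted p = 0.022) and miR-18a-5p by 0.49 (adjusted p = 0.042). Without mice 16 and 26 the log2FC was -0.41 for miR-20a-5p (adjusted p = 0.21), -0.33 for miR-20b-5p (0.21), -0.31 for miR-19b-3p (0.23), -0.15 for miR-106b-5p (0.91) and -0.14 for miR-18a-5p (1). Centring of each array on its median reduced miR-20a-5p to -0.29 and miR-18a-5p to -0.25. It reduced miR-20b-5p to -0.06, miR-19b-3p to -0.06 and miR-106b-5p to -0.05, and none of these 5 then passed. In the authors' value table miR-18a-5p ran the other way (log2FC 0.85, adjusted p = 0.13).

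In the let-7 family, known for restraint of growth-promoting mRNAs, 1 of 9 was lower (against 8.97% of all tested) and none higher, and the median log2FC was 0.01 against -0.20 over all. The member that changed was let-7i-5p, with levels of 10.14, 10.02 and 10.04 at 0 Gy and of 9.89, 9.66 and 9.66 at 12 Gy. Its groups did not overlap, and the log2FC was -0.33 ± 0.08 (SE, adjusted p = 0.020), which became -0.18 (adjusted p = 0.86) without mice 16 and 26 and -0.09 (adjusted p = 0.60) when arrays were centred. Centring made let-7c-5p pass as higher (log2FC 0.31, adjusted p = 0.043). let-7a-5p, which has the same seed, had a log2FC of 0.09 (95% interval -0.08 to 0.26).

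Hepatocyte miRNAs did not pass. All 7 on the list were tested by limma with 0 higher and 0 lower, also at an unadjusted p below 0.05, and the median log2FC was -0.05. miR-122-5p had levels of 16.32, 16.29 and 16.27 at 0 Gy and of 16.29, 16.26 and 16.18 at 12 Gy, so the groups overlapped (log2FC -0.05, 95% interval -0.21 to 0.11). Of the erythroid miRNAs 4 were tested, with 0 higher and 0 lower by limma at either threshold and a median of -0.25, or -0.20 with 1 member at its bound. miR-451a, the main miRNA of red blood cells, had levels of 11.74, 11.46 and 11.58 at 0 Gy and of 11.73, 11.41 and 11.53 at 12 Gy. These ranges were almost the same (log2FC -0.04, 95% interval -0.37 to 0.29). Neither of the endothelial miRNAs passed. Of 5 miRNAs of stellate cells, fibroblasts and smooth muscle, 1 was lower by limma (against 8.97% of all tested), miR-214-3p (log2FC -0.57, adjusted p = 0.030). It was well above background on 3 arrays at 0 Gy and 1 at 12 Gy. Without mice 16 and 26 its log2FC was -0.11 (adjusted p = 1), and in the authors' value table it was 0.33. Of 12 metabolic and stress miRNAs of liver none passed, with 4 lower at an unadjusted p below 0.05 (against 30.0% of all tested). One of these 12, miR-21a-5p, a miRNA often raised by injury, had a log2FC of 0.14 (95% interval -0.05 to 0.34).

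**Figure D2:**
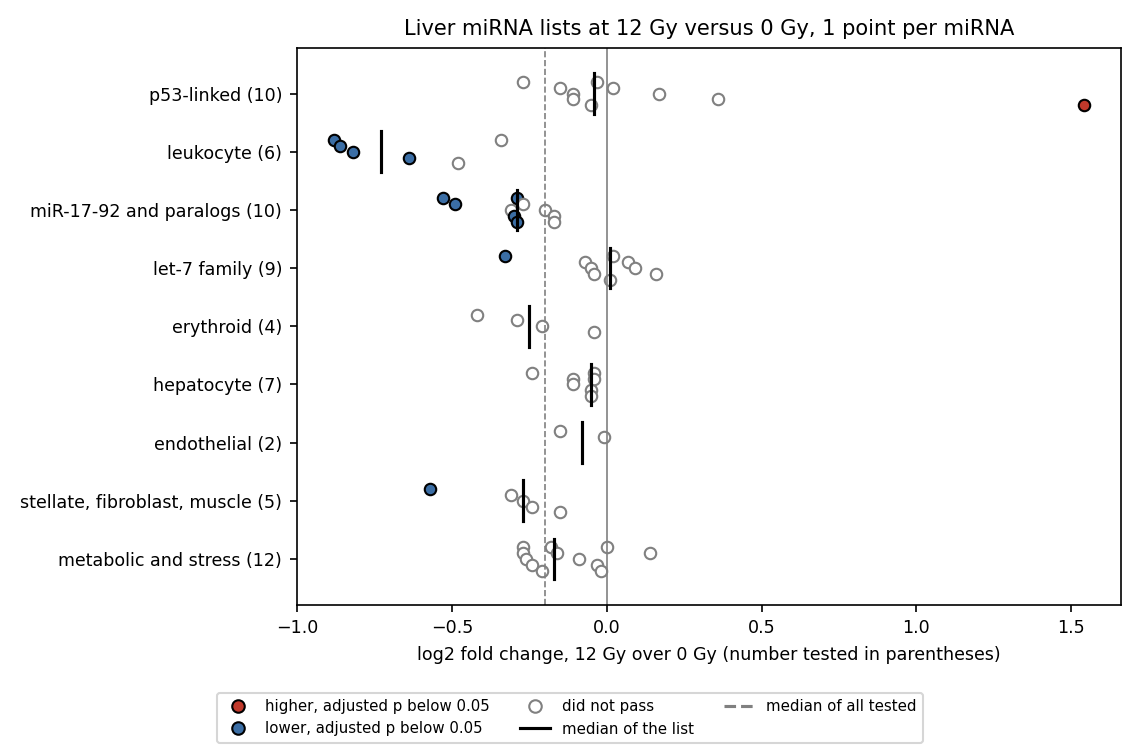
Log2 fold change of 12 Gy over 0 Gy for each tested member of 9 miRNA lists, with 1 point per miRNA, filled where the adjusted p was below 0.05, a bar at each list median and a dashed line at the median of all miRNAs tested (-0.20). miR-34a-5p lies far to the right of the other p53-linked miRNAs at 1.54, and the leukocyte list has the lowest median (-0.73).

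The miRNAs that rose beside miR-34a-5p were miR-8110, miR-5126, miR-211-3p, miR-3102-5p, miR-3960 and miR-8101. miR-5126 had levels of 9.14, 9.18 and 9.0 at 0 Gy and of 10.04, 10.36 and 10.24 at 12 Gy. Its groups were far apart, with a log2FC of 1.11 ± 0.22 (SE), a 2.15-fold rise (adjusted p = 0.0053). miR-3102-5p had levels of 7.70, 7.76 and 7.46 at 0 Gy and of 8.42, 8.80 and 8.68 at 12 Gy (log2FC 0.99 ± 0.22 (SE), adjusted p = 0.0084). miR-3960 had levels of 8.60, 8.70 and 8.62 at 0 Gy and of 9.35, 9.69 and 9.58 at 12 Gy (log2FC 0.90 ± 0.21 (SE), adjusted p = 0.012). In each of these the lowest irradiated mouse was mouse 6 and the highest was mouse 16. For miR-8110 the levels were 8.44, 8.44 and 8.29 at 0 Gy and 9.12, 9.34 and 9.32 at 12 Gy (log2FC 0.87 ± 0.14 (SE), adjusted p = 0.00097). miR-211-3p had a log2FC of 0.82 (adjusted p = 0.0057) and miR-8101 of 0.63 (adjusted p = 0.029), again without overlap. Without mice 16 and 26 the log2FC was 0.94 for miR-5126 (adjusted p = 0.29), 0.78 for miR-3102-5p (0.50), 0.69 for miR-3960 (0.54), 0.72 for miR-8110 (0.20), 0.68 for miR-211-3p (0.36) and 0.53 for miR-8101 (0.56). All 6 had a log2FC above 0 with quantile normalization, with scaling to the detected probes, with centring and in the authors' value table, and of -0.45 to -0.63 with scaling to the 75th percentile of all probes.

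Most miRNAs that rose were rich in G and C, as were others that did not change. Over the 194 tested miRNAs with a sequence, G and C made up a median of 47.8% of bases, against 72.05% in the 6 that rose and 43.5% in the 19 that fell, and it reached 94.7% among the 169 that did not change. miR-5126 consisted of G and C alone (100%). The G share alone had a median of 56.8% among those that rose and 26.1% over all. Among 15 miRNAs with more than 70% G and C, 4 were higher and 0 lower by limma, against 3.14% and 8.97% of all 223 tested. In this class 10 had a log2FC above 0 and the median was 0.12, while 82.1% of all 223 had a log2FC below 0. In the classes of 40 to 50% and of 50 to 60%, which held 83 and 38 miRNAs, the medians were -0.17 and -0.28. The exception among the 6 was miR-34a-5p, with 50% G and C. These are descriptions across miRNAs, which share arrays and are not independent replicates, and the part of base composition in the result was not tested.

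**Figure D3:**
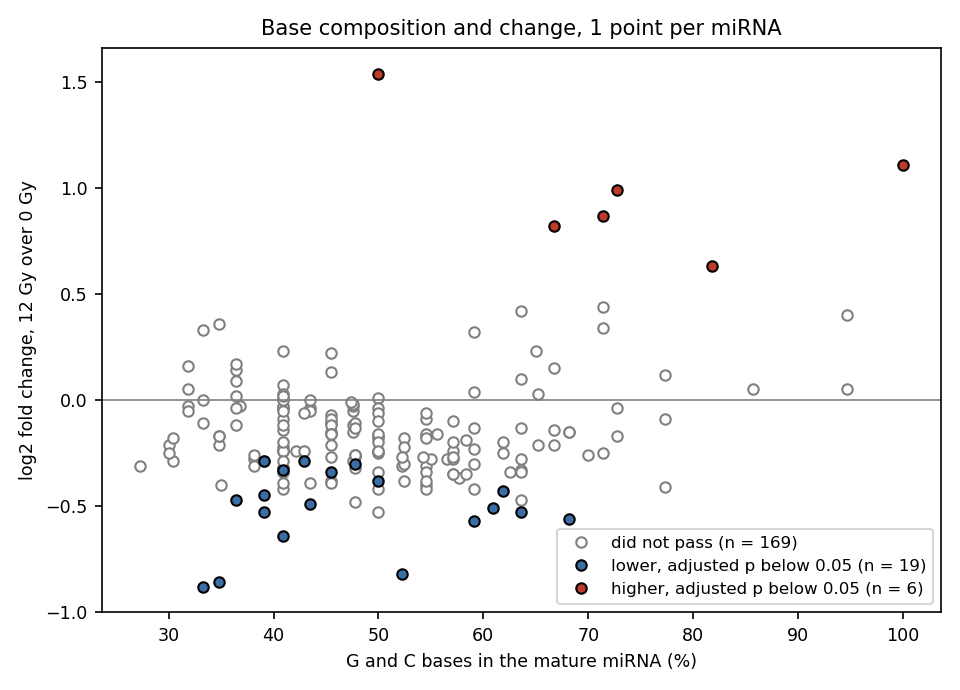
Log2 fold change of 12 Gy over 0 Gy against the percentage of G and C in the mature sequence for 194 miRNAs, 1 point each, in red where higher (n = 6) and blue where lower (n = 19). The point at 50% and 1.54 is miR-34a-5p, and the other 5 miRNAs that rose all lie above 65% G and C.

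Some of the further miRNAs that fell were dim, while others, such as miR-378b (mean 7.95 at 0 Gy) and miR-494-3p (7.69), were brighter. miR-7022-3p had levels of 6.06, 5.75 and 6.02 at 0 Gy and of 5.62, 5.27 and 5.33 at 12 Gy (adjusted p = 0.022), but it was well above background on none of these 6 arrays, so no fold is given. miR-7080-3p had a log2FC of -0.56 (adjusted p = 0.024) and was well above background on 2 arrays at 0 Gy and 1 at 12 Gy. Without mice 16 and 26 its log2FC was -0.19 (adjusted p = 1). Of the 27 miRNAs that changed, 19 were well above background on all 6 arrays. The 24 with more than 1 probe showed no pair of probes in opposite directions, and the probes of a miRNA differed by at most 0.27 in log2FC. Of the 12 miRNAs that the study's text or tables name for liver, 10 were tested. All 10 changed (6 higher, 4 lower, against 12.1% of all tested), although that list was drawn from these samples and is not independent evidence. Changed rests here on the adjusted p alone. Of the 10, only miR-34a-5p and miR-5126 also passed the absolute log2FC of 1 that the study required. The 2 not tested (miR-302a-5p, miR-466n-3p) were well above background on 0 of 18 liver arrays. Of 61 miRNAs of the Sfmbt2 cluster, 3 were tested by limma with 0 changed, also at an unadjusted p below 0.05.

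The intermediate doses gave 12 arrays of other mice, which entered the normalization and the estimate of spread but neither group of the contrast. miR-34a-5p had mean levels of 8.36 at 0 Gy, 8.86 at 1 Gy, 9.16 at 2 Gy, 9.61 at 4 Gy, 9.66 at 8 Gy and 9.90 at 12 Gy (n = 3 each). Most of its climb was thus reached at 4 Gy. On slide 1, which held all controls, the 1 Gy array (9.08) and both 2 Gy arrays (9.35 and 9.30) lay above the 3 controls. miR-142a-3p had means of 8.77, 8.42, 8.45, 8.30, 7.99 and 7.91 over the same doses, so its values were already lower at 1 Gy. miR-223-3p had means of 8.17, 8.11, 7.91, 7.94, 7.81 and 7.53.

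The other upregulated miRNAs followed another course. miR-5126 had means of 9.11, 8.71, 8.91, 8.69, 9.87 and 10.21 from 0 to 12 Gy, and miR-3102-5p of 7.64, 7.14, 7.26, 7.03, 8.35 and 8.63. Up to 4 Gy neither mean exceeded that of the controls, and the rise lay between 4 and 8 Gy. miR-3960 (8.33 at 4 Gy, 9.26 at 8 Gy) and miR-8110 (8.31 at 4 Gy, 8.93 at 8 Gy) also had higher means at 8 Gy than at 4 Gy. On slide 3 the 12 Gy array of mouse 6 exceeded the mean of the 3 arrays at 4 Gy by 1.35 for miR-5126, 1.39 for miR-3102-5p, 1.02 for miR-3960 and 0.81 for miR-8110.

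A slope of log2 level on dose was fitted to the 1, 2, 4 and 8 Gy arrays alone. It passed for 8 of 223 miRNAs (3.59%), of which 6 were among the 27 that changed at 12 Gy. These were miR-3102-5p (0.171 per Gy, adjusted p = 0.043), miR-5126 (0.160, adjusted p = 0.043), miR-3960 (0.140, adjusted p = 0.043), miR-34a-5p (0.106, adjusted p = 0.047), miR-211-3p (0.104, adjusted p = 0.043) and miR-142a-3p (-0.0671, adjusted p = 0.041). All 7 miRNAs that were higher at 12 Gy had a positive slope, against 53.8% of all tested, and 15 of the 20 that were lower had a negative one, against 46.2%. The slopes of miR-223-3p (-0.033, limma, adjusted p = 0.29) and miR-20a-5p (-0.0194, adjusted p = 0.76) did not pass. With slide as a term no slope passed by limma (0 of 223, 25 at an unadjusted p below 0.05). On slide 2 alone, 2 arrays at 8 Gy differed from 2 arrays at 1 Gy in the direction of the 12 Gy change for 26 of the 27 miRNAs, against 75.3% of all 223, although 6 of the 27 differed by less than 0.1.

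**Figure D4:**
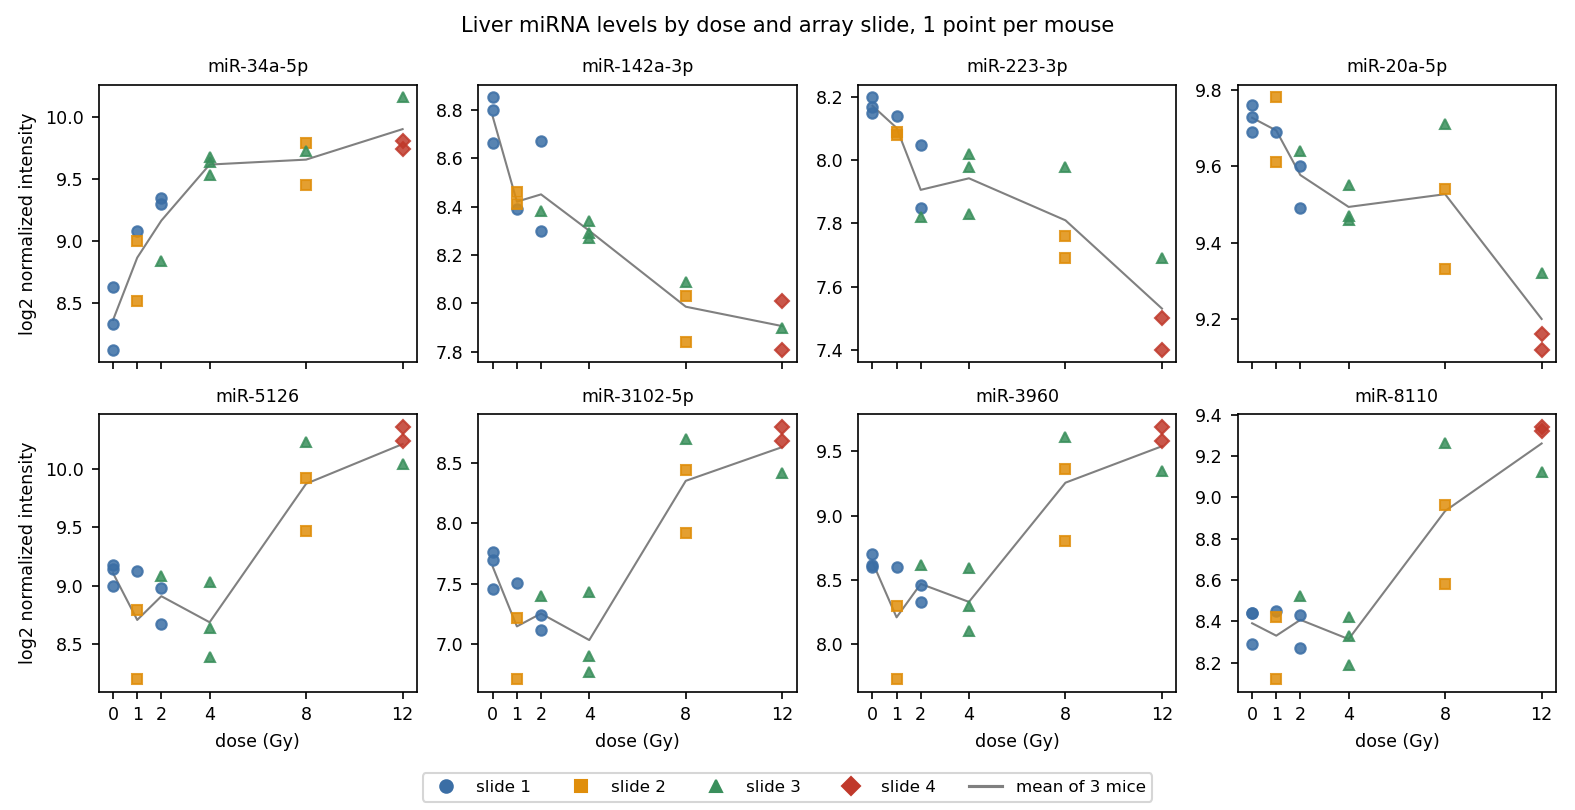
Log2 normalized intensity of 8 miRNAs in liver against dose in Gy, 1 point per mouse (n = 3 per dose), with marker and colour giving the slide and a grey line through the means. miR-34a-5p climbs from the lowest doses and miR-142a-3p declines. miR-223-3p and miR-20a-5p have their lowest means at 12 Gy, but their slopes over 1 to 8 Gy did not pass. miR-5126, miR-3102-5p and miR-3960 have means at 1 to 4 Gy below those at 0 Gy, those of miR-8110 are about level there, and all 4 are higher at 8 and 12 Gy.

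The same contrast in lung served to show where liver differed. Over 36 arrays of both organs 428 miRNAs were tested, and the change at 12 Gy differed between the organs for 12 (2.80%, limma interaction). miR-142a-3p was among them, with a log2FC of -0.99 in liver and -1.67 in lung (difference 0.69 ± 0.16 (SE), adjusted p = 0.034). Its fall was the smaller in liver. For miR-34a-5p the log2FC was 1.52 in liver and 1.11 in lung, a difference of 0.40 ± 0.20 (SE) that did not pass (adjusted p = 0.24). miR-223-3p (-0.77 in liver, -0.69 in lung) and miR-8110 (0.91 and 0.89) had close values, with differences of -0.08 ± 0.16 and 0.02 ± 0.38 (SE). miR-342-3p had -1.18 in liver and -0.39 in lung, which did not pass either (adjusted p = 0.071). The 12 calls were not stable, since leaving out any 1 of the 12 arrays of 0 and 12 Gy gave between 1 and 85 miRNAs, with 37 without liver mouse 11 and 85 without liver mouse 6, and at most 5 without any other.

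mRNA arrays with the same sample numbers showed what other transcripts did in these livers. On them 37970 probes were tested, of which 7.15% changed at 12 Gy, 2.97% higher and 4.18% lower. Of 10 p53 target genes 9 were higher and 0 lower by limma, with a median log2FC of 2.00 against 0.01 over all probes. Cdkn1a, the cell cycle inhibitor p21, had levels of 5.94, 6.75 and 6.70 at 0 Gy and of 12.57, 12.61 and 13.17 at 12 Gy. The rise was 80.2-fold (adjusted p = 2.3e-09), and the other, dimmer probe of the gene rose by 1.92 on the log2 scale. Phlda3, an inhibitor of Akt signalling, rose 15.1-fold (adjusted p = 2.3e-09). Eda2r, a receptor of the TNF family, rose at least 10.3-fold, being well above background on 0 of 3 control arrays (adjusted p = 6.07e-06). The exception was Zmat3, with a log2FC of 1.38 and an adjusted p of 0.115. Of the 18 well-known targets of miR-34a none was higher and 2 were lower by limma, Axl and Lef1. Axl, a receptor kinase, had a log2FC of -0.49 (adjusted p = 0.0304), and its other probe, at -0.12, did not pass. Lef1, a Wnt pathway factor (adjusted p = 0.0202), was near background. It was well above background on 1 of 3 arrays at 0 Gy and 0 of 3 at 12 Gy, with means of 4.72 and 3.86. The median log2FC of the 18 was 0.14. Sirt1, a deacetylase often cited as a miR-34a target, had levels of 10.14, 10.02 and 9.91 at 0 Gy and of 10.61, 10.37 and 10.45 at 12 Gy (adjusted p = 0.063). Without mouse 1, 11, 16 or 26 none of the 18 was lower, and without mouse 21 it was 1. With processed signals scaled to the 75th percentile, 2 were higher and 1 lower.

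The cell type markers on the mRNA arrays moved beside the leukocyte miRNAs. Of 5 genes expressed by all leukocytes 4 were lower, with Coro1a, an actin-binding protein, at 9.90, 9.85 and 9.83 at 0 Gy and at 7.47, 7.00 and 7.18 at 12 Gy, a 6.25-fold fall (adjusted p = 4.05e-07). The mean over these 5 genes lay between 9.30 and 9.43 at 0 Gy and between 8.04 and 8.31 at 12 Gy. Among the leukocyte lists the B cell markers had the lowest median log2FC (-2.56), with 5 of 7 lower. Ms4a1 (CD20) was at least 7.05-fold lower and Fcmr at least 7.86-fold, each well above background on 0 of 3 arrays at 12 Gy (adjusted p = 6.07e-06 and 2.89e-07). The other, dimmer probe of Ms4a1 had a log2FC of -0.33 and did not pass. Of 8 T cell markers 4 were lower, and Cd3d of the T cell receptor complex fell 3.36-fold (adjusted p = 0.00049). Kupffer cell markers fell less. Clec4f, a Kupffer cell lectin, fell 1.65-fold (adjusted p = 0.00106), and 4 of 6 were lower, but without any single 0 or 12 Gy mouse the number was 1.

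Neutrophil markers went both ways, while miR-223-3p fell. Of 8 tested, S100a9 (log2FC 0.98, adjusted p = 0.0495) and Retnlg (at least 1.98-fold, adjusted p = 0.0297, well above background on 1 of the 6 arrays) were higher, and Camp, a granule peptide, was at least 2.06-fold lower (adjusted p = 0.0254). The mean over the 8 lay between 6.14 and 6.66 at 0 Gy and between 6.22 and 6.76 at 12 Gy. Without mouse 1, 21 or 26 none was higher, without mouse 11 or 6 the number was 1, without mouse 16 it was 3, and none was lower without mouse 1, 11, 6, 16 or 26. Evl, the host gene of miR-342-3p, had levels of 10.16, 10.08 and 10.07 at 0 Gy and of 9.12, 9.26 and 9.04 at 12 Gy. This was a 1.95-fold fall (adjusted p = 0.00136), and its other probe had a log2FC of -0.33 and did not pass. With slide as a term of the limma model, Evl had a log2FC of -0.60 (adjusted p = 0.409). Trpm1, the host gene of miR-211-3p, was near background, with a log2FC of 0.10 (adjusted p = 0.843) and a range over its 3 probes of -0.14 to 1.59, none of which passed. The part of cell makeup in the miRNA results was not tested.

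Globin mRNAs fell far more than erythroid miRNAs did. Of 8 erythroid genes 7 were lower, with a median log2FC of -6.46. That median was set by the 5 globin genes, with log2FC of -6.44 to -9.01. The alpha globin gene Hba-a1 had levels of 15.84, 16.08 and 15.96 at 0 Gy and of 9.75, 9.62 and 9.20 at 12 Gy, an 86.9-fold fall (adjusted p = 3.18e-07), and Hbb-bt of beta globin was at least 517-fold lower (adjusted p = 6.33e-08). The other 3 genes changed less or did not pass. Alas2, the erythroid enzyme of heme synthesis, fell 2.39-fold (adjusted p = 0.00184). Slc4a1 was at least 2.24-fold lower (adjusted p = 0.0155), being well above background on no 12 Gy array. Epb42 was well above background on no array of either group and did not pass (log2FC 0.83). Globin paralogs are nearly identical and their probes may share signal. Beside these values stood the log2FC of miR-451a (-0.04) and of miR-144-3p (-0.21, 95% interval -0.52 to 0.10), from the same hairpin cluster. The 10 hepatocyte mRNAs had log2FC between -0.39 and 0.06 with a median of -0.04, and none passed. Of 6 endothelial genes, the sinusoidal marker Lyve1 was higher (log2FC 1.57) and the junction gene Cdh5 lower (-0.60). With slide as a term of the limma model, Lyve1 had a log2FC of 1.68 (adjusted p = 0.0849) and Cdh5 of -0.06 (adjusted p = 0.96). The mRNA arrays of 0 Gy lay on slide 1 and those of 12 Gy on slides 2 and 3. With slide as a term, 7 p53 targets were higher and 5 erythroid, 3 B cell, 2 T cell and 1 general leukocyte gene lower. The 5 erythroid genes were the globins. No Kupffer cell, neutrophil or miR-34a target gene passed.

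**Figure D5:**
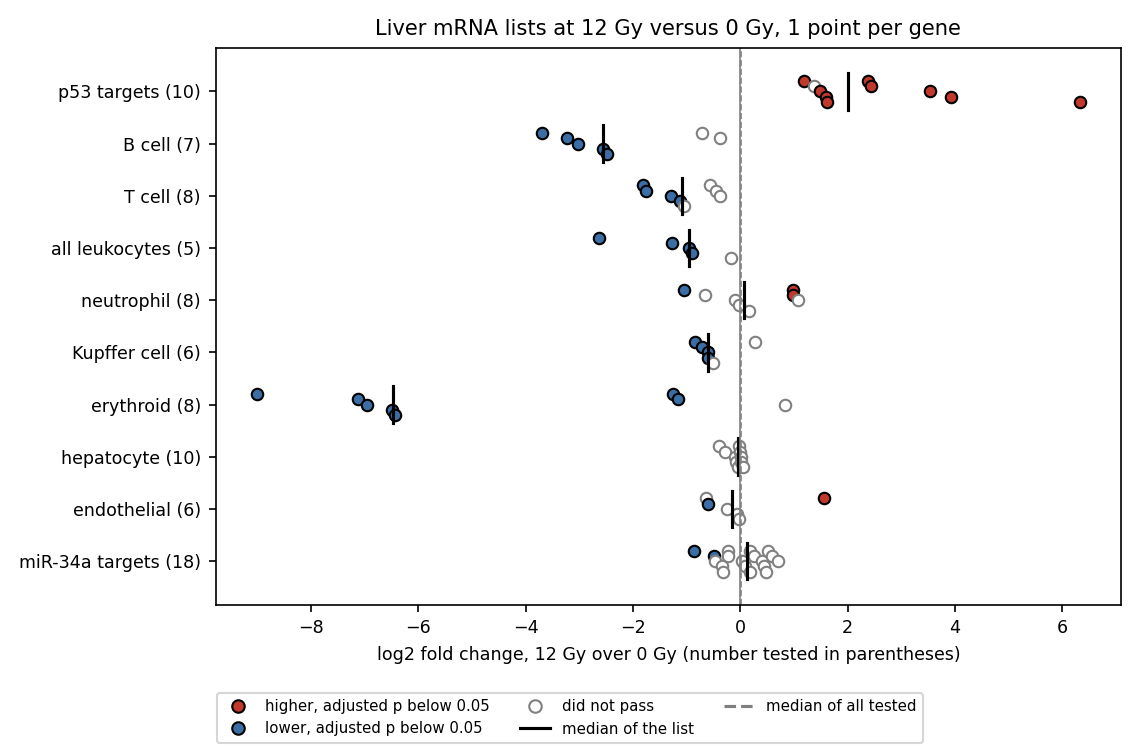
Log2 fold change of 12 Gy over 0 Gy for each tested gene of 10 mRNA lists in the same livers, 1 point per gene, filled where the adjusted p was below 0.05, with a bar at each list median and a dashed line at the median of all probes. The p53 targets lie to the right with a median of 2.00. The B cell genes and most erythroid genes lie to the left (medians -2.56 and -6.46), and the hepatocyte genes close to 0.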

How the data were processed

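The authors extracted 1-colour Agilent array intensities with Agilent Feature Extraction, and the deposited intensities of spots and of their background were not yet normalized. Per the labels, the labelling protocol describes poly(A) amplification for the miRNA arrays too. From the deposited median intensities, limma (3.58.1, in R 4.3.3) applied normexp background correction (offset 0), quantile normalization over the 18 liver arrays and log2. Control and outlier spots were left out, and spots and then probes of a miRNA were averaged. A probe was kept if at least 0.5 of its spots were well above background on at least 1 array. Models of 6 dose groups were fitted with lmFit and eBayes (two-sided, Benjamini-Hochberg over all features tested, threshold 0.05). For mRNAs the brightest probe is given. A group well above background on no array was given, as a bound, each array's lowest signal well above background or the measured value, whichever was higher. Named are miRNAs past both thresholds, up to 10 more in each direction by p, those the study names, and list members. The members and lists were chosen with earlier results of these data known. Nothing states whether mice shared a cage or day. The number of arrays limits the precision. Fits were tested on simulated data. In the authors' value table (linear intensity, column medians 0.01 to 0.386) scaling is unknown. Each of its 18 liver columns correlated best by rank with the scanner signals of the same array (Spearman 0.839 to 1). The column medians were 0.266 and 0.386 for mice 16 and 26, against 0.01 to 0.02 on the 0 Gy arrays and that of mouse 6. The lowest value in it was 0.01. Of the 27 miRNAs that changed, 8 had the opposite direction in it. A withheld item is not reported here.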

Additional observations from a re-analysis of the deposited data

Results flagged for a closer look

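The interaction test over 36 arrays (limma, normalized together, adjusted p of 0.036 or less) marked 12 of 428 miRNAs whose change at 12 Gy differed between liver and lung. The values here are the log2FC in liver minus that in lung. miR-30d-5p, of the miR-30 family, had the lowest adjusted p (0.0023), with a difference of -0.59 between a log2FC of -0.19 in liver and 0.40 in lung. Its relative miR-30a-5p had a difference of -0.37. miR-30c-2-3p, the 3p strand of a miR-30 hairpin with a seed other than that of miR-30a-5p, had a difference of -1.02. miR-142a-3p (0.69) and miR-150-5p (0.57), both leukocyte miRNAs, had lower log2FC in lung, although miR-150-5p was well above background on 0 of the 18 liver arrays. let-7f-5p had a difference of 0.48, with a log2FC of 0.16 in liver and -0.32 in lung, and miR-503-5p of 0.57. For the others the liver value was the lower, with miR-7022-3p at -1.33, miR-378a-5p at -1.30, miR-7080-3p at -1.09, miR-301a-3p at -0.92 and miR-702-3p at -0.84. In liver, miR-7022-3p was well above background on 0 of the 6 arrays and miR-378a-5p, miR-7080-3p and miR-301a-3p on 1 of 3 at 12 Gy, so these differences rest on values near background. No liver array at 0 Gy shared a slide with one at 12 Gy, neither did any lung array, and the part of slide in these differences was not tested.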

How the results depend on the processing

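Of the 27 miRNAs that changed, all kept their direction and their side of the threshold with a normexp offset of 50 and with an intensity trend in eBayes, as did all 25 that a strict filter on dim probes left to test. The cause of the shifts that follow was not tested. Counts are of miRNAs higher and lower at 12 Gy against 7 and 20, or past both thresholds against 2 and 0. They were 15 and 12 (13 higher past both) with processed signal scaled to the 75th percentile of detected probes, 14 and 7 (6 past both) with centring on the median, 4 and 1 (4 past both) with normexp and 75th percentile scaling, and 0 and 0 (0 past both) with the 75th percentile of all probes. In the last, miR-211-3p (-0.46), miR-3102-5p (-0.45), miR-3960 (-0.53), miR-5126 (-0.49), miR-8101 (-0.63) and miR-8110 (-0.56) reversed. The total gene signal gave 11 lower (5 higher and 2 lower past both). The authors' value table gave 4 lower and 9 higher past both, and reversed miR-142a-5p (0.51), miR-18a-5p (0.85), miR-214-3p (0.33), miR-301a-3p (0.88), miR-324-5p (0.07), miR-331-3p (0.01), miR-378a-5p (0.28) and miR-7022-3p (0.51). No filter gave 12 lower, tests per probe 14 and 34 (5 past both), 36 arrays together 4 and 4 past both, and the 6 arrays alone 4 lower. Slide as a term gave 1 and 0 (1 past both), as a random block 3 and 6, and leaving out mice 16 and 26 gave 1 and 1 (1 past both). A scan session was the same as a slide. Centring, slide as a term of the mRNA fit and leaving out both mice were chosen after seeing the data.

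Leaving out 1 array gave 4 to 8 higher and 5 to 91 lower miRNAs, 2 to 3 and 0 to 2 past both. The slope count was 0 up and 0 down with 75th percentile scaling (9 at an unadjusted p below 0.05, limma) and with slide as a term. Slopes reversed with the former for miR-18a-5p (-0.0557), miR-19b-3p (0.00531), miR-301a-3p (-0.0483), miR-324-5p (-0.0615), miR-331-3p (-0.0364) and miR-378a-5p (-0.0357), with the latter for miR-18a-5p (-0.00842), miR-324-5p (-0.0132), miR-331-3p (-0.0117) and miR-378a-5p (-0.00445), and with centring for miR-331-3p (-0.00652).

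The liver groups at 0 and 12 Gy share no sample number, so only the comparison with lung could take a block. With the sample number as a replicate block 0 of 428 miRNAs differed between organs by limma (84 at an unadjusted p below 0.05). The numbers were not shown to pair the samples, since deviations of the 18 liver and lung pairs correlated at r of -0.21 to 0.11. The count was 27 with scaling to detected probes (miR-150-5p reversed, -2.56), 0 with the 12 arrays alone (54 at an unadjusted p below 0.05), and 1 to 85 without 1 array.

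On the mRNA arrays, 75th percentile scaling gave 1 neutrophil gene higher, and 2 miR-34a targets higher and 1 lower. Slide as a term gave 3 B cell, 2 T cell, 1 general leukocyte and 0 Kupffer cell genes lower, 0 neutrophil genes either way and 0 miR-34a targets lower. Without 1 array, B cell genes lower numbered 5, T cell 4 to 5, general leukocyte 3 to 4, Kupffer cell 1, erythroid 6 to 7 and miR-34a targets 0 to 2, p53 targets higher 9, and neutrophil genes 0 to 3 higher and 0 to 1 lower. Dim miRNAs were limited by signal over background, as 8 of the 27 were not well above it on all 6 arrays.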
